A study of Mus musculus with 12 samples.

Results

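The effect of adding ADU-S100 to cyto-IL-15 was examined by comparing 3 combination-treated tumors (20L, 22 and 28LL) with 3 cyto-IL-15-treated tumors (9R, 13 and 20LL), which were chosen by their treatment labels alone and make up 6 of the 12 tumors of the study. All tumors grew from 5000000 TRAMP-C2 cells, a mouse prostate cancer line of the TRAMP transgenic model, injected under the skin of the right flank of male C57BL/6J mice aged 6 to 8 weeks. Treatment into the tumor began at about 200 mm3. The cyto-IL-15 group received 2 doses of 10 µg cyto-IL-15 in PBS, on days 0 and 4, and the combination group received these and 3 doses of 50 µg ADU-S100 in HBSS, on days 0, 2 and 4. Tumors were collected on day 6, 1 injected site per mouse by the labels, and were divided in parts that were frozen. RNA came from this undissected material, so that RNA of tumor, stroma and infiltrating cells was measured together. Which part of a tumor was used is not stated. The numbers in the tumor names are not explained by the labels, and 20 occurs in both compared groups (20LL and 20L) and 22 in the HBSS, ADU-S100 and combination groups. A single line in a single host strain stands for the disease. In such bulk samples fewer cells of a type and less RNA per cell cannot be told apart. The 3 HBSS-treated and the 3 ADU-S100-treated tumors are given only as background levels. Total counts ranged from 48772204 to 79020457 in the 6 compared tumors.

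STING is a membrane protein of the endoplasmic reticulum that answers DNA leaked into the cytosol, and ADU-S100 is a synthetic dinucleotide that activates it. Its activation leads to type I interferon and inflammatory cytokines, and interferon in turn switches on antiviral effector genes, chemokines that call in leukocytes, and genes of antigen presentation. Interleukin-15 keeps natural killer (NK) and CD8+ T lymphocytes alive and active. Both lymphocytes kill by releasing perforin and granzymes from granules. The drug cyto-IL-15 carries a peptide with myristoyl groups that anchors it to cell membranes.

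Tumors 13 and 28LL stood apart from the other 4. Over 40 gene lists for pathways and cell types, tumor 28LL had the highest mean level of the 6 tumors in 31 lists and tumor 13 the lowest in 26. Tumor 13 had 6894 CPM (TMM-normalized counts scaled by library size) of Met, a growth factor receptor, against 43.6 to 409.8 CPM in the other 5. It also had the highest Krt8, an epithelial keratin, with 83.6 CPM against 2.15 to 7.66 CPM. Epithelial markers were otherwise low, with Krt18 at 0.0883 to 0.449 CPM outside tumor 13 and no read of the prostate gene Pbsn in any of the 6, while Vim, a mesenchymal filament gene, had 1909 to 5118 CPM. Skeletal muscle fiber genes had mean levels, as log2 of CPM plus 0.5, of 5.05, 0.43 and 3.64 in the cyto-IL-15 tumors and 1.96, 4.91 and 7.18 in the combination tumors, against 0.38 to 0.52 in the HBSS tumors. The part of muscle or of epithelial content in the results below was not tested. The main values are also given from a single fit of the 10 tumors other than 13 and 28LL, which has 2 tumors in each compared group.

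Adding ADU-S100 went with higher levels of interferon-induced genes, cytotoxic granule genes and part of the inflammatory monocyte genes, and with lower levels of Cd209a, a lectin of monocyte-derived dendritic cells. No gene passed the main test. Of 18619 genes tested by edgeR's quasi-likelihood test, 0 (0%) were called at an adjusted p under 0.05 with a log2 fold change beyond 1 in size, the smallest adjusted p was 0.785, and 926 had an unadjusted p under 0.05. The Wald test of DESeq2 on the same 6 tumors called 100 genes higher (0.520% of 19220 with an adjusted p) and 11 lower (0.0572%), and edgeR's likelihood ratio test called 53. Of the 100 genes that DESeq2 called higher, 97 had their highest CPM of the 6 tumors in tumor 28LL. Over all tested genes this tumor was the highest in 27.8%. The fit of 10 tumors by edgeR called 41 genes higher (0.198% of 20675) and 11 lower (0.0532%), and 24 genes were called by both, which is 21.6% of the DESeq2 calls and 46.2% of those of the 10-tumor fit. Of all tested genes, 1096 (5.89%) had a higher CPM in every combination tumor than in every cyto-IL-15 tumor, and 1280 (6.87%) a lower one. With 3 tumors against 3 an exact permutation test cannot give a two-sided p below 0.10, so this separation of the groups is a description. Counts of list members below are to be read against these shares of all genes. Below, called means called by DESeq2 on the 6 tumors or in the 10-tumor fit, and no gene so called passed the main test. Tumors 13 and 28LL were left out of the 10-tumor fit for their values in these same data. Its adjusted p values therefore leave out their part of the spread between tumors. The biological coefficient of variation was 0.522 over the 6 tumors and 0.269 in that fit. In simulated data with a coefficient of 0.5, DESeq2 made 32 false calls over 37344 genes fitted and edgeR's quasi-likelihood test 5 over 19077. The simulation gave all genes the same coefficient and held no tumor that stood apart as tumors 13 and 28LL do. Its counts therefore do not give the error of the calls in the tumor data. Single DESeq2 calls are to be read with this in mind. A log2 fold change (log2FC) below is the edgeR estimate over the 6 tumors, with its standard error (SE), and a positive value means a higher level with the combination. CPM values of a gene are listed for tumors 9R, 13 and 20LL and for tumors 20L, 22 and 28LL, in that order.

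**Figure D1:**
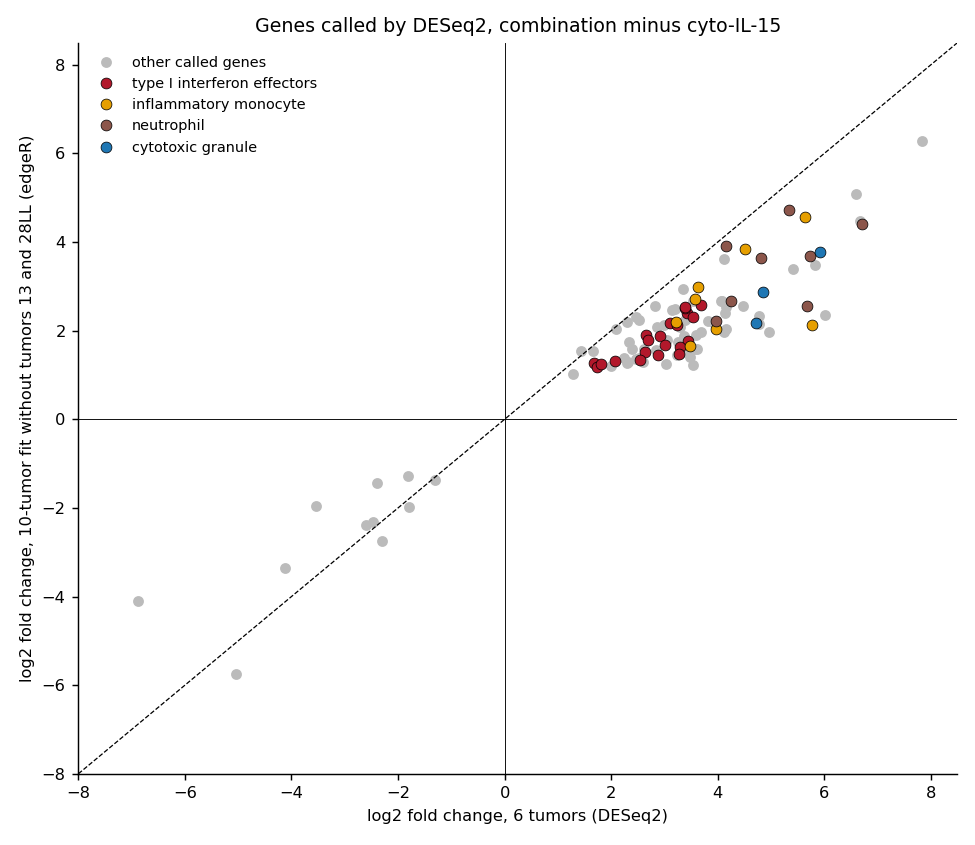
Log2 fold changes (combination minus cyto-IL-15) of the 111 genes that DESeq2 called, over the 6 tumors (x axis, DESeq2) and in the 10-tumor fit without tumors 13 and 28LL (y axis, edgeR), colored by gene list. All 111 kept their sign and 106 lay nearer to 0 in the 10-tumor fit, below the dashed line of equal values for the genes with positive values. These genes were called for large differences in tumors that both fits share. Most of them already had groups without overlap (94 higher and 11 lower). Neither the kept signs nor the smaller values are therefore separate support.

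The type I interferon effectors, which block virus replication or mark infected cells, were the list with the most genes called. Of 50 tested members, 39 were higher in every combination tumor (5.89% of all tested genes), 21 were called higher by DESeq2 (0.520% of all genes) and 10 by the 10-tumor fit (0.198%). None was lower in every combination tumor, and none was called lower. The median log2FC of the list was 1.78, against -0.02 over all tested genes, and 1.02 in the 10-tumor fit. In the promoter table of RefSeq (GRCm38.p6, 300 bases around each start), 38 of the 50 had an entry. The core of the interferon-stimulated response element (ISRE), which the factor ISGF3 binds after interferon signaling, was searched as GAAANNGAAA on both strands, overlaps allowed. It was present for 18 of these 38 genes (47.4%), against 3.99% of 27025 genes with a promoter in the table and 3.44% of its 32851 promoters. This share describes a list made of interferon effectors and does not depend on the tumor values. A route through ISGF3 in these tumors was not tested. The stretches of 150 bases before the start of the 3 members with the smallest p that held it are shown, 5′ to 3′ on the gene's strand, because they carry the element through which such genes answer interferon, with the core matches in capitals.
Isg15, chr4:156200819-156200968, minus strand: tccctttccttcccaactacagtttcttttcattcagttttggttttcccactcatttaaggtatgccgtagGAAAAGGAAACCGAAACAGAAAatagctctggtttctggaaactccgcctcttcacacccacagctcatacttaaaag
Bst2, chr8:71537473-71537622, minus strand: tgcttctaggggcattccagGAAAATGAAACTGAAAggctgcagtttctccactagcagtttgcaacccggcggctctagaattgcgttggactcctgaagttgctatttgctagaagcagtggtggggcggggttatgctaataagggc
Oas1a, chr5:120907526-120907675, minus strand: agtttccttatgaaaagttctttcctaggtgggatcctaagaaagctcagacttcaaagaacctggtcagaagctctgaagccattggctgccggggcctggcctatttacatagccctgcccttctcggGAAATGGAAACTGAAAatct
In Isg15 and Bst2 the matches began 78 and 130 bases before the start, and in Oas1a 20 bases before it. Matches overlapped in all 3 promoters, as a run of GAAA units.

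Isg15, a ubiquitin-like modifier that is joined to proteins during the antiviral response, had 11.04, 14.4 and 10.9 CPM in the cyto-IL-15 tumors and 52.0, 73.3 and 254 CPM in the combination tumors. The groups did not overlap, and all 3 cyto-IL-15 tumors were near the HBSS range of 13.0 to 20.9 CPM while the ADU-S100 tumors had 108 to 171 CPM. Its log2FC was 3.40 (SE 0.66; adjusted p = 0.000169 by DESeq2) and 2.51 in the 10-tumor fit (adjusted p = 0.00962 by edgeR). Bst2, which tethers budding viruses to the cell surface, had 125, 77.02 and 165 CPM and 306, 394 and 467 CPM. Oas1a, an oligoadenylate synthetase that is switched on by viral RNA, had 15.7, 8.59 and 13.7 CPM and 38.6, 62.3 and 144 CPM. Neither gene overlapped between the groups, and tumor 13 had the lowest value of both.

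Oas2, of the same family, had 5.96, 4.87 and 4.82 CPM and 24.0, 39.9 and 137 CPM, with a log2FC of 3.70 (SE 0.70; adjusted p = 5.56e-05 by DESeq2). It was the member with the highest log2FC. Ifi44, a cytosolic protein gene that interferon induces, had 8.60, 3.68 and 7.13 CPM and 28.2, 42.1 and 94.6 CPM, against 7.08 to 13.5 CPM in HBSS tumors (log2FC 3.10, SE 0.57; adjusted p = 0.000152 by DESeq2 and 0.0461 in the 10-tumor fit of edgeR). Ifi27l2a, a small interferon-induced membrane protein, had 12.8, 7.21 and 16.3 CPM and 55.2, 98.5 and 233 CPM, with a log2FC of 3.43 (SE 0.62). In each of these the order of the combination tumors was 20L, 22 and 28LL from the lowest to the highest.

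Rtp4, a chaperone of receptors that interferon induces, had 23.1, 10.4 and 21.7 CPM and 66.4, 100.8 and 180.1 CPM, and its log2FC of 2.67 (SE 0.49) was 1.90 in the 10-tumor fit (adjusted p = 0.0103 by edgeR). Xaf1, a partner of an inhibitor of apoptosis, had 20.1, 15.8 and 16.9 CPM and 35.5, 52.8 and 97.4 CPM (log2FC 1.82, SE 0.40; adjusted p = 0.0226 by DESeq2). Both genes had higher values in the 3 ADU-S100 tumors, 138 to 169 and 68.7 to 89.7 CPM, than in combination tumors 20L and 22. Among the 11 members that overlapped between the groups was Ifitm1, with 1.38, 29.5 and 2.29 CPM and 11.5, 12.9 and 184 CPM, where tumor 13 was the high cyto-IL-15 tumor. Ifitm1 is among the members that the 10-tumor fit called higher (adjusted p = 0.0143 by edgeR), and that fit left tumor 13 out.

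**Figure D2:**
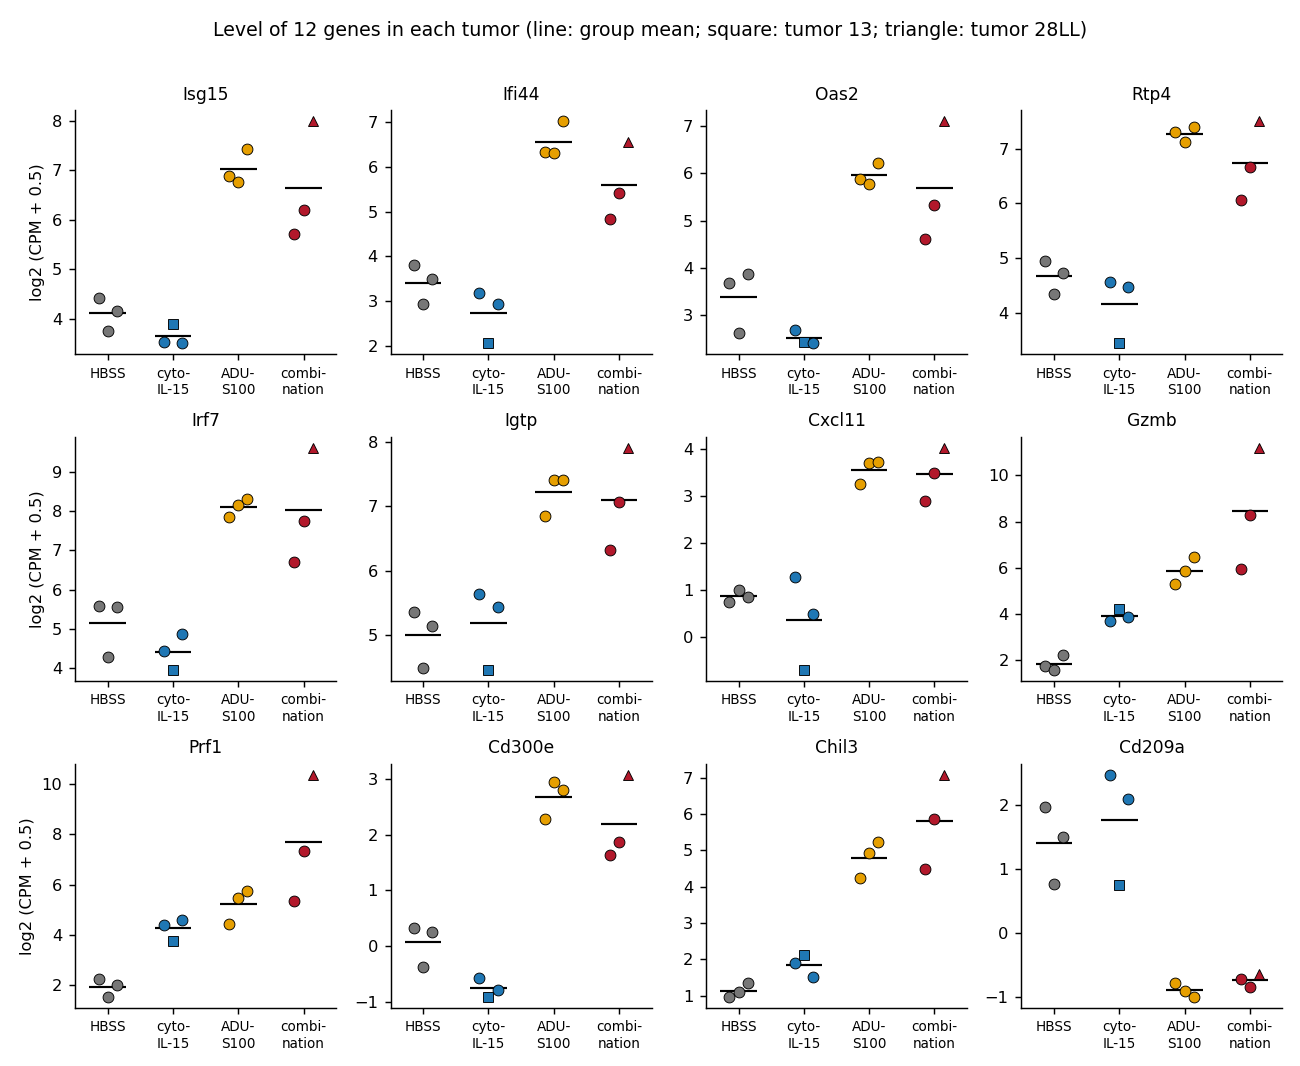
Level of 12 genes in each of the 12 tumors, as log2 of CPM plus 0.5 (y axis, one scale per gene), by group. Points are tumors, the line is the group mean, the square is tumor 13 and the triangle tumor 28LL. In all 12 genes the 3 combination tumors lie on one side of the 3 cyto-IL-15 tumors, above in 11 and below in Cd209a.

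Of 22 tested genes of cytosolic DNA and RNA sensing, 9 were higher in every combination tumor (5.89% of all tested genes) and 3 were called higher by DESeq2 (Irf7, Dhx58 and Zbp1; 0.520%), with a median log2FC of 0.72 and of 0.19 in the 10-tumor fit. Irf7, which amplifies the interferon response as a transcription factor, had 21.2, 15.1 and 28.7 CPM and 104.1, 215 and 770.4 CPM, against 18.9 to 47.8 CPM in HBSS tumors (log2FC 4.09, SE 0.81; adjusted p = 4.78e-05 by DESeq2 and 0.0940 in the 10-tumor fit). Zbp1, a sensor of Z-form nucleic acid, had 34.1, 18.9 and 30.5 CPM and 59.98, 95.1 and 255 CPM. The RNA helicase Dhx58 had 15.3, 9.83 and 16.3 CPM and 31.1, 51.2 and 112 CPM, and neither of these genes overlapped between the groups.

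Cgas, the enzyme that makes the natural STING ligand, had 22.1, 10.98 and 20.7 CPM and 31.1, 26.9 and 30.8 CPM without overlap. Tmem173, which encodes STING, had 81.8, 83.2 and 86.9 CPM and 79.5, 107 and 127 CPM, and its groups overlapped. Of the 16 interferon genes that were too low to test, Ifnb1, the gene of interferon-β, had 5, 0 and 0 reads in the cyto-IL-15 tumors and 3, 2 and 25 in the combination tumors, and no interferon-α gene had more than 11 reads in a tumor. Of the 12 signaling genes, 4 were higher in every combination tumor (5.89% of all tested genes) and none was called. They were the subunits Stat2 (log2FC 1.75, SE 0.51) and Irf9 (0.99, SE 0.29) of ISGF3, the inhibitor Socs1 (1.53, SE 0.47) and the factor Irf1 (0.74, SE 0.26).

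Interferon-γ-inducible GTPases, which attack the vacuoles of intracellular microbes, had the highest share of members without overlap among the lists of at least 10 tested genes. Of 20 tested members, 16 were higher in every combination tumor (5.89% of all tested genes), and 3 were called higher by DESeq2 (Gbp10, Tgtp1 and Igtp) and 0 by the 10-tumor fit. Their median log2FC was 1.83, and 0.97 in the 10-tumor fit. The ISRE core was found for 10 of the 11 members with a promoter in the table, which again describes the list and not the tumors. Igtp had 49.4, 21.4 and 42.6 CPM and 79.3, 133 and 239 CPM (log2FC 2.01, SE 0.50; adjusted p = 0.0438 by DESeq2). Irgm1, a regulator of the family, had 72.2, 38.7 and 65.8 CPM and 112, 182 and 332 CPM, with a log2FC of 1.84 (SE 0.46; adjusted p = 0.0619 by DESeq2). Gbp10, of the guanylate-binding proteins, had 1.12, 0.290 and 0.4999 CPM and 2.06, 7.39 and 32.4 CPM. Tumor 13 was the lowest in all 3 genes.

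Ifng, the gene of interferon-γ itself, was low and overlapped, with 1.08, 0.451 and 1.54 CPM and 1.09, 3.35 and 10.4 CPM (log2FC 2.30, SE 0.91). Without tumors 13 and 28LL its log2FC was 0.76. Of the chemokines that draw CXCR3-bearing T and NK cells, Cxcl11 had 1.90, 0.113 and 0.897 CPM and 6.89, 10.8 and 15.7 CPM (log2FC 3.52, SE 0.97; adjusted p = 0.00599 by DESeq2 and 0.0204 in the 10-tumor fit of edgeR). Cxcl10 had 109.8, 11.1 and 75.7 CPM and 149.6, 265 and 308 CPM, and Cxcl9 had 153, 20.8 and 87.3 CPM and 184, 315 and 195 CPM. These 3 ligands were higher in every combination tumor, with tumor 13 lowest in each. Their receptor Cxcr3 overlapped, with 15.1, 1.35 and 17.5 CPM and 5.05, 14.1 and 20.5 CPM.

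Antigen presentation differed by class. Of 23 tested genes of MHC class I and peptide loading, 13 were higher in every combination tumor (5.89% of all tested genes) and none was called, with a median log2FC of 0.97 (0.34 in the 10-tumor fit). Tap1, the peptide transporter, had 143, 44.2 and 161 CPM and 208, 307 and 479.6 CPM (log2FC 1.53, SE 0.54). The heavy chain H2-D1 had 1953, 402 and 2160.3 CPM and 2662, 3277 and 4411 CPM, and the immunoproteasome subunit Psmb9 had 61.5, 14.98 and 80.0 CPM and 82.8, 119 and 213 CPM. In these genes tumor 13 was far below the other 5 tumors, and tumor 20L was nearest to tumors 9R and 20LL.

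MHC class II genes, which professional antigen-presenting cells use, had a median log2FC of -0.89 over 12 tested members and of -1.71 in the 10-tumor fit. No member was separated by group. In all 12 members tumor 13 had the lowest value of the 6, and in the 11 of them other than Ctss tumors 9R and 20LL were above all 3 combination tumors. H2-Eb1 had 1205, 93.3 and 1489 CPM and 122, 423 and 301 CPM, against 408 to 1001 CPM in HBSS tumors and 87.5 to 229.6 CPM in ADU-S100 tumors. Its log2FC was -1.71 (SE 0.94) and -2.31 in the 10-tumor fit (adjusted p = 0.296 by edgeR). H2-Ob, a chain of the peptide-loading modulator, had 6.46, 0.677 and 8.02 CPM and 1.501, 2.03 and 1.75 CPM and was called lower in the 10-tumor fit alone (log2FC -2.03, adjusted p = 0.0378 by edgeR, against -1.51 over the 6 tumors). Ctss, a protease that trims the invariant chain, was the 1 member with a positive log2FC, at 0.90 (SE 0.47).

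**Figure D3:**
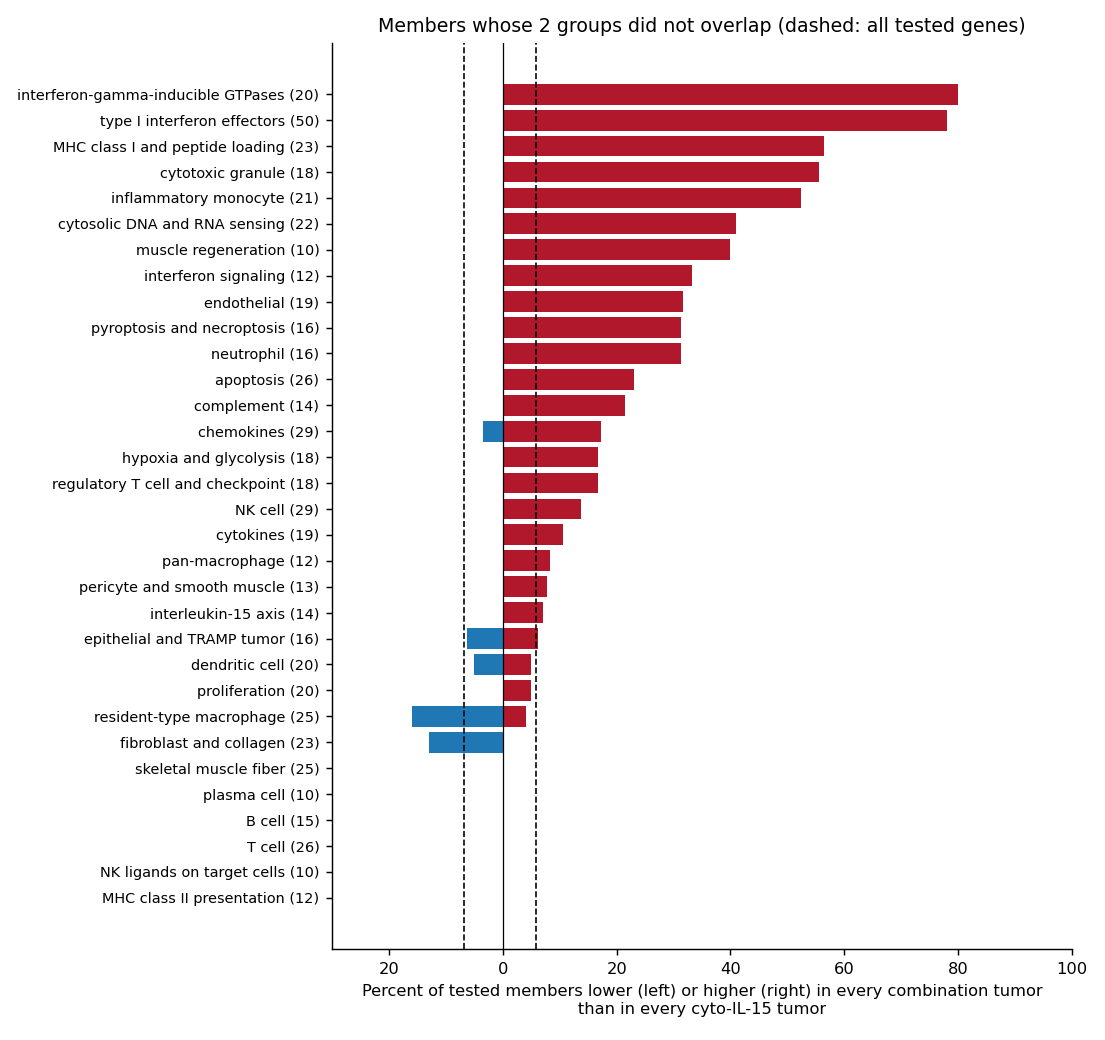
Percent of the tested members of each gene list (number tested in parentheses, lists with at least 10) that were higher (red, right) or lower (blue, left) in every combination tumor than in every cyto-IL-15 tumor. Dashed lines mark all tested genes, 5.89% higher and 6.87% lower, and the interferon-γ-inducible GTPases have the longest bar, with 16 of 20 members.

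Cytotoxic granule genes were higher with the combination, with a wide spread between the 3 tumors. Of 18 tested members, 10 were higher in every combination tumor (5.89% of all tested genes), 3 were called higher by DESeq2 (Gzmb, Gzma and Prf1) and 6 by the 10-tumor fit (Gzmc, Gzmd, Gzme, Gzmf, Gzmg and Srgn). The median log2FC was 2.31, and 1.04 in the 10-tumor fit. Gzmb, the granzyme that starts caspase-dependent death in target cells, had 12.5, 17.7 and 14.1 CPM in the cyto-IL-15 tumors and 60.3, 307 and 2313 CPM in the combination tumors. Tumor 28LL was far above the others, and the HBSS tumors had 2.46 to 4.12 CPM. Its log2FC was 5.94 (SE 1.39; adjusted p = 1.11e-05 by DESeq2) and 3.78 in the 10-tumor fit (adjusted p = 0.145 by edgeR).

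Prf1, the pore-forming protein, had 20.4, 13.2 and 24.0 CPM and 40.9, 160.0 and 1306 CPM (log2FC 4.74, SE 1.30; 2.17 in the 10-tumor fit, adjusted p = 0.262 by edgeR). Gzma, a granzyme that acts without caspases, had 18.6, 9.14 and 44.8 CPM and 87.5, 374 and 1618 CPM (log2FC 4.87, SE 1.22). Gzmc had 21.7, 37.7 and 14.6 CPM and 141, 217 and 2216 CPM, against 0.884 to 1.199 CPM in HBSS tumors and 55.6 to 108 CPM in ADU-S100 tumors. DESeq2 gave Gzmc a log2FC of 5.12 (SE 0.95) but no adjusted p, so that it could not be called there. The same held for Il1b and Il6. In each of these genes all 3 combination tumors were above the cyto-IL-15 tumors, with tumor 20L nearest to them. Srgn, the proteoglycan that packs granule contents and is also made by myeloid cells, had 40.7, 43.2 and 47.7 CPM and 91.7, 109 and 345 CPM (log2FC 2.07, SE 0.54; 1.19 and adjusted p = 0.0198 in the 10-tumor fit of edgeR).

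Gzmd, Gzme, Gzmf and Gzmg lie beside Gzmc and are nearly identical in sequence. How the authors counted reads that map to several places is not given in the sources used here, so the split of reads among them is uncertain. The same holds for other near-identical families described here, such as Oas1a, the Gbp and Irg GTPases, the H2 heavy chains and Apol9a. Gzmd had 0.0577, 10.9 and 0.0128 CPM and 52.3, 99.6 and 2881 CPM, and Gzmf had 0.0962, 6.43 and 0.0897 CPM and 46.9, 72.3 and 1952 CPM. For all 4 of these genes tumor 13 was the only cyto-IL-15 tumor above 0.1 CPM, and all were higher in every combination tumor. They were called only in the 10-tumor fit, which left tumor 13 out. Of the 8 members that overlapped, Rab27a, a GTPase of granule release, had 12.6, 3.76 and 12.7 CPM and 10.98, 21.2 and 103.6 CPM, and Gzmk had 3.17, 0.693 and 4.13 CPM and 1.31, 5.22 and 16.3 CPM.

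NK and T cell identity genes did not separate the groups in the way the granule genes did. Of 29 tested NK cell genes, 4 were higher in every combination tumor and 1 was called higher by DESeq2 (5.89% and 0.520% of all genes), with a median log2FC of 1.40 that was 0.28 in the 10-tumor fit. That gene was Klrg1, an inhibitory receptor of mature NK and effector T cells, with 3.54, 2.77 and 6.45 CPM and 9.86, 29.2 and 181 CPM (log2FC 4.14, SE 1.13; adjusted p = 0.00328 by DESeq2). Cd244a, a receptor of the SLAM family, had 10.2, 3.45 and 11.05 CPM and 12.6, 19.8 and 83.8 CPM. None of the 26 tested T cell genes was separated or called, and their median log2FC of 0.61 became -0.24 in the 10-tumor fit. Trbc1, a constant chain of the T cell receptor, had 10.98, 2.499 and 12.02 CPM and 7.17, 19.3 and 94.4 CPM, and Zap70, its kinase, had 15.3, 3.74 and 19.9 CPM and 11.8, 33.0 and 87.7 CPM. In both, tumor 20L was below tumors 9R and 20LL.

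The mean log2 level of the NK cell list was 2.89, 1.48 and 3.07 in the cyto-IL-15 tumors and 2.63, 3.54 and 4.73 in the combination tumors, against 1.29 to 1.60 in the HBSS tumors. The T cell list had 3.59, 1.42 and 3.71 and 2.70, 3.86 and 4.61. In both lists tumor 13 was the lowest and tumor 28LL the highest of the 6. Of 14 tested genes of the interleukin-15 axis, 1 was higher in every combination tumor, near the 5.89% of all tested genes. It was Il2rg, the shared γ chain, with 53.6, 19.5 and 49.3 CPM and 55.9, 96.5 and 177 CPM (log2FC 1.44, SE 0.54). Il2rb, the β chain that binds interleukin-15, had 70.5, 24.7 and 84.1 CPM and 62.8, 153 and 683 CPM, and Il15ra, which presents it, had 12.3, 6.497 and 11.8 CPM and 10.8, 13.6 and 34.8 CPM (log2FC 0.97, SE 0.53). Both overlapped between the groups.

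Of 18 tested genes of regulatory T cells and checkpoints, 3 were higher in every combination tumor (5.89% of all tested genes). Tnfrsf9, the costimulatory receptor 4-1BB, had 26.9, 24.1 and 22.96 CPM and 69.5, 77.6 and 383 CPM (log2FC 2.86, SE 0.73; adjusted p = 0.0124 by DESeq2). Cd274, which encodes the checkpoint ligand PD-L1, had 12.8, 13.7 and 11.4 CPM and 14.1, 28.0 and 139 CPM, with tumor 20L just above the highest cyto-IL-15 tumor (log2FC 2.28, SE 0.84). Havcr2, the checkpoint receptor TIM-3, had 18.8, 18.1 and 17.5 CPM and 25.8, 25.7 and 122 CPM. Of 10 tested ligands that NK cells see on target cells, none was separated or called, and the median log2FC was 0.18. Granzyme inhibitors had a median of 0.83 over 5 members, with none separated. Of 9 death ligands and receptors, 2 were higher and 1 was lower in every combination tumor (5.89% and 6.87% of all tested genes). Tnf, a cytokine that can kill tumor cells, had 3.40, 1.82 and 3.37 CPM and 5.87, 10.8 and 25.6 CPM (log2FC 2.32, SE 0.63; adjusted p = 0.0324 by DESeq2), and Tnfrsf10b, a death receptor, had 28.1, 34.4 and 26.9 CPM and 24.0, 21.1 and 12.9 CPM.

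**Figure D4:**
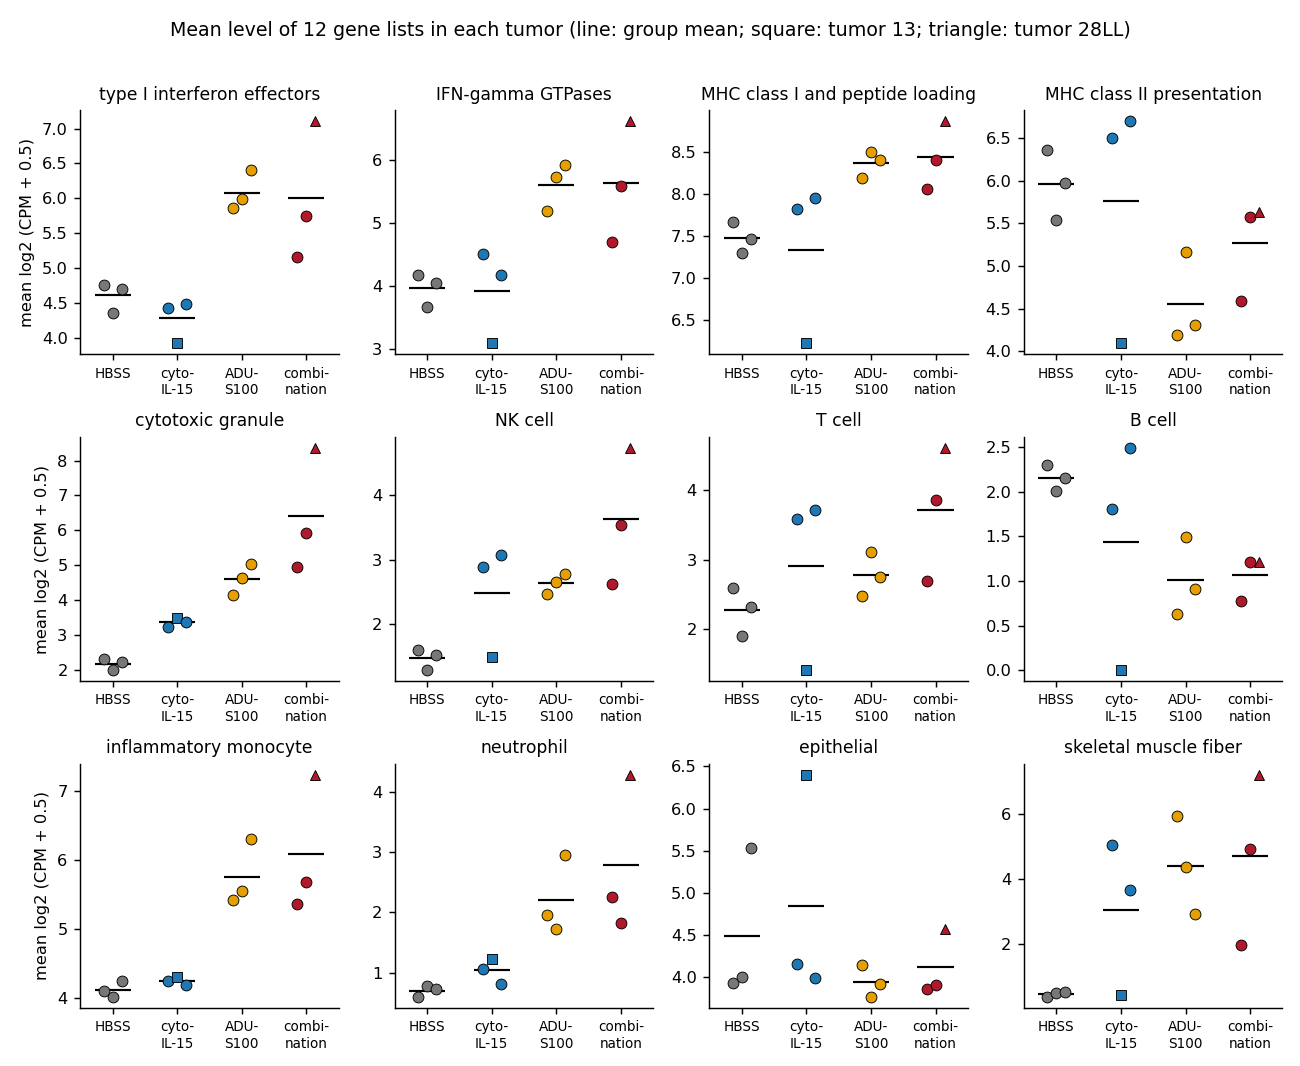
Mean log2 level (CPM plus 0.5) of the tested members of 12 gene lists in each of the 12 tumors, by group, with the group mean as a line, tumor 13 as a square and tumor 28LL as a triangle. Tumor 28LL is the highest combination tumor in all 12 lists, and the type I interferon effectors of the combination tumors, at 5.16, 5.75 and 7.10, all lie above those of the cyto-IL-15 tumors, at 4.42, 3.92 and 4.48.

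Myeloid genes gave the smallest p of the comparison among the genes with higher levels. Of 21 tested inflammatory monocyte genes, 11 were higher in every combination tumor (5.89% of all tested genes), 8 were called higher by DESeq2 (0.520%) and 4 by the 10-tumor fit (0.198%; Cd300e, Chil3, F10 and Clec4e). Another 5 members (Vcan, F13a1, Fn1, Arg1 and Thbs1) had negative log2FC, down to -1.32 for the matrix gene Vcan, with overlap between the groups. Their median log2FC was 2.62, and 1.66 in the 10-tumor fit. Cd300e, an activating receptor of monocytes, had 0.173, 0.0322 and 0.0769 CPM and 2.62, 3.16 and 7.89 CPM, with 0.272 to 0.753 CPM in HBSS tumors and 4.38 to 7.18 CPM in ADU-S100 tumors. The lowest combination tumor was far above the highest cyto-IL-15 tumor. The log2FC was 5.61 (SE 0.86, 95% interval 3.54 to 7.68), with an adjusted p of 4.02e-10 by DESeq2 and of 0.0113 in the 10-tumor fit of edgeR.

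Chil3, a chitinase-like protein of activated monocytes, had 3.19, 3.85 and 2.33 CPM and 22.1, 57.3 and 134 CPM (log2FC 4.52, SE 0.72; adjusted p = 4.72e-08 by DESeq2 and 0.0198 in the 10-tumor fit of edgeR). Nos2, the inducible nitric oxide synthase, had 4.38, 3.97 and 5.40 CPM and 26.5, 18.4 and 82.5 CPM (log2FC 3.23, SE 0.62). Plac8 had 12.2, 25.8 and 26.5 CPM and 98.3, 154 and 518 CPM. Ly6c2, the surface antigen that defines these monocytes, had 19.3, 2.52 and 30.6 CPM and 50.6, 155 and 605 CPM. All 4 were separated by group. Ccr2, the receptor that brings monocytes from the marrow, overlapped, with 248, 48.3 and 216 CPM and 100.1, 169 and 389.5 CPM.

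Most neutrophil genes had few reads outside tumor 28LL, apart from the protease gene Mmp9 (also made by macrophages) with 993, 145 and 770.3 CPM and 925, 639 and 122 CPM. Of 16 tested members 5 were higher in every combination tumor and 6 were called higher by DESeq2 (5.89% and 0.520% of all genes), and the median log2FC was 3.04 (2.33 in the 10-tumor fit). S100a8, an abundant calcium-binding protein of neutrophils, had 0.654, 1.85 and 0.551 CPM and 5.15, 2.49 and 50.5 CPM (log2FC 4.27, SE 1.31). Lcn2, which binds iron carriers of bacteria, had 0.769, 0.516 and 0.692 CPM and 2.59, 5.98 and 92.2 CPM, and Acod1, which makes itaconate in activated myeloid cells, had 4.35, 2.61 and 3.13 CPM and 12.7, 22.2 and 123 CPM. Ly6g, the defining surface marker, had at most 48 reads in a tumor and was not tested. In S100a8, Lcn2 and Acod1 tumor 28LL was the highest, in Mmp9 the lowest.

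The gene with the smallest p of all was lower and belonged to the dendritic cell list. Cd209a had 5.04, 1.18 and 3.77 CPM in the cyto-IL-15 tumors and 0.103, 0.0583 and 0.138 CPM in the combination tumors, against 1.196 to 3.40 CPM in HBSS tumors and 0 to 0.0821 CPM in ADU-S100 tumors. All 6 tumors given ADU-S100 were below all 6 not given it. The log2FC was -5.02 (SE 0.76, 95% interval -6.85 to -3.19), with an adjusted p of 1.13e-08 by DESeq2 and of 0.0320 in the 10-tumor fit of edgeR. No other member of the list was lower in every combination tumor, and Itgax, an integrin of dendritic cells and macrophages, was higher in every one. Itgax had 48.9, 15.3 and 44.7 CPM and 54.1, 71.7 and 49.8 CPM, with tumor 28LL just above tumor 9R (log2FC 0.70, SE 0.44). The other 19 dendritic cell genes had log2FC from -0.93 to 1.38, with a list median of -0.09.

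Of 25 resident-type macrophage genes, 4 were lower and 1 was higher in every combination tumor (6.87% and 5.89% of all tested genes), with a median log2FC of -0.10 (-0.68 in the 10-tumor fit). Vsig4, a complement receptor of resident macrophages, had 0.635, 0.564 and 0.474 CPM and 0.0589, 0.160 and 0.0826 CPM (log2FC -2.45, SE 0.52; adjusted p = 0.0313 by DESeq2). Cd163, the hemoglobin scavenger receptor, had 3.56, 2.58 and 6.90 CPM and 0.751, 1.28 and 2.02 CPM (log2FC -1.66, SE 0.58). Siglec1, a sialic acid receptor that interferon raises, went the other way, with 44.8, 41.2 and 60.5 CPM and 63.7, 111 and 166 CPM (log2FC 1.23, SE 0.37). In the HBSS tumors Cd163 was 7.72 to 10.6 CPM and Vsig4 0.748 to 1.05 CPM. Pan-macrophage genes had a median of 0.72 over 12 members (0.07 in the 10-tumor fit), and mast cell and basophil genes of 0.40 over 7.

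B cell genes had a median log2FC of -0.75 over 15 members and plasma cell genes of -0.48 over 10, or -1.39 and -1.49 in the 10-tumor fit. No member of either list was separated or called. Igkc, the κ light chain, had 141, 0.306 and 379.8 CPM and 10.6, 34.6 and 17.3 CPM, against 129 to 268 CPM in HBSS tumors (log2FC -3.05, SE 1.72). Cd79a, a signaling chain of the B cell receptor, had 1.87, 0.726 and 6.41 CPM and 0.559, 0.642 and 0.937 CPM. In both genes tumors 9R and 20LL were high, and in Igkc tumor 13 was near 0, so that the groups overlapped.

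Of the cytokines and chemokines, Ccl7, which attracts monocytes, was called higher both by DESeq2 and by the 10-tumor fit. It had 39.8, 22.2 and 33.1 CPM and 87.7, 132 and 278 CPM, against 41.9 to 52.5 CPM in HBSS tumors (log2FC 2.40, SE 0.49; adjusted p = 0.00328 by DESeq2 and 0.0456 in the 10-tumor fit of edgeR). Of 29 tested chemokine genes, 5 were higher and 1 was lower in every combination tumor (5.89% and 6.87% of all tested genes), with a median log2FC of 1.02. Of 19 tested cytokine genes, 2 were higher in every combination tumor (5.89% of all tested genes), with a median of 0.90. They were Il1b, which inflammasomes release, with 3.96, 6.56 and 4.55 CPM and 7.62, 8.05 and 80.0 CPM, and Il18bp, the decoy of interleukin-18, with 9.73, 6.93 and 10.3 CPM and 10.6, 20.9 and 78.2 CPM.

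Among other cytokine genes, Ccl2 was higher in every combination tumor, with 220.0, 30.6 and 168 CPM and 255, 352 and 234 CPM (log2FC 1.01, SE 0.65). Ccl5 overlapped, with 32.3, 5.56 and 44.9 CPM and 35.4, 37.4 and 69.4 CPM, and so did Cxcl1, with 3.52, 5.85 and 4.26 CPM and 9.96, 5.00 and 18.6 CPM, and Il12b, with 1.31, 0.451 and 0.936 CPM and 0.795, 2.04 and 1.65 CPM. Il6 had 0.519, 0.677 and 0.205 CPM and 0.677, 0.831 and 10.2 CPM, and Il10 had 0.654, 0.226 and 1.04 CPM and 0.677, 1.28 and 3.02 CPM. In Il6 and Il10 the high value of the combination group was that of tumor 28LL. Csf2 had 0.0769, 0.887 and 0.0641 CPM and 0.132, 0.365 and 1.40 CPM, and Il12a, which was not tested, had 0, 0 and 10 reads in the cyto-IL-15 tumors and 3, 27 and 105 in the combination tumors.

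Genes of stress and cell death were represented by Cdkn1a, the cell cycle inhibitor p21, which had the smallest adjusted p of the 10-tumor fit. It had 14.6, 36.4 and 16.0 CPM in the cyto-IL-15 tumors and 65.3, 74.1 and 190.5 CPM in the combination tumors, and 22.2 to 28.5 CPM in HBSS and 80.8 to 106 CPM in ADU-S100 tumors. The log2FC was 2.31 (SE 0.58; adjusted p = 0.0318 by DESeq2) and 2.19 in the 10-tumor fit (adjusted p = 0.00122 by edgeR). Of 26 tested apoptosis genes 6 were higher in every combination tumor, with a median of 0.23, and of 16 pyroptosis and necroptosis genes 5 were, with a median of 0.71, against 5.89% of all tested genes. Casp4, which senses bacterial lipid in the cytosol, had 21.7, 7.46 and 19.2 CPM and 27.5, 35.6 and 49.4 CPM.

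Ankrd37, a target of hypoxia-inducible factor, was steady within both groups. It had 4.60, 3.27 and 4.35 CPM and 11.6, 14.3 and 12.7 CPM, but HBSS tumors spanned 3.49 to 12.6 CPM, so that tumor 20L lay within their range and tumors 22 and 28LL just above it (log2FC 1.67, SE 0.30; adjusted p = 9.49e-05 by DESeq2 and 0.354 in the 10-tumor fit of edgeR). Hmox1, which breaks down heme, had 42.2, 92.8 and 62.6 CPM and 226, 115 and 289 CPM. Of the 18 hypoxia and glycolysis genes 3 were higher in every combination tumor, with a median of 0.38, and of the 20 proliferation genes 1, with a median of 0.13, against 5.89% of all tested genes.

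In the stroma, 6 of 19 endothelial genes were higher in every combination tumor (5.89% of all tested genes), with a median log2FC of 1.00 that was 0.12 in the 10-tumor fit. Flt1, a receptor of vascular growth factor, had 43.6, 37.9 and 34.1 CPM and 68.7, 55.4 and 62.9 CPM (log2FC 0.70, SE 0.20), and Icam1, the adhesion molecule for leukocytes, had 44.9, 28.5 and 49.2 CPM and 55.0, 69.1 and 118 CPM. Of 23 fibroblast and collagen genes, 3 were lower and none was higher in every combination tumor, against 6.87% and 5.89% of all tested genes (median -0.29, and -0.33 in the 10-tumor fit). Col1a2, a chain of type I collagen, had 8857, 7558 and 9933 CPM and 5558, 5728 and 3361 CPM (log2FC -0.84, SE 0.28). Col1a1, its partner chain, had 7339, 5460.1 and 8957 CPM and 4998, 5072 and 3977 CPM, with the lowest combination value in tumor 28LL.

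The remaining lists differed widely between tumors of a group. Complement genes had a median log2FC of 1.24 over 14 members (0.16 in the 10-tumor fit), pericyte and smooth muscle genes of 0.55 over 13, and red blood cell genes of 0.94 over 6. The median of skeletal muscle fiber genes was 2.11 over 25 and of -0.40 in the 10-tumor fit, and muscle regeneration genes of 2.94 over 10 and 0.97. Adipocyte genes had 0.80 over 7 and -2.27, keratinocyte genes -0.07 over 2 and 0.14, and epithelial and TRAMP tumor genes -1.26 over 16 and 0.05. The sign of the muscle fiber, adipocyte, keratinocyte and epithelial medians thus changed when tumors 13 and 28LL were left out, as did that of the T cell genes and of the interferon and receptor genes (5 tested, 0.37 and -0.21).

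**Figure D5:**
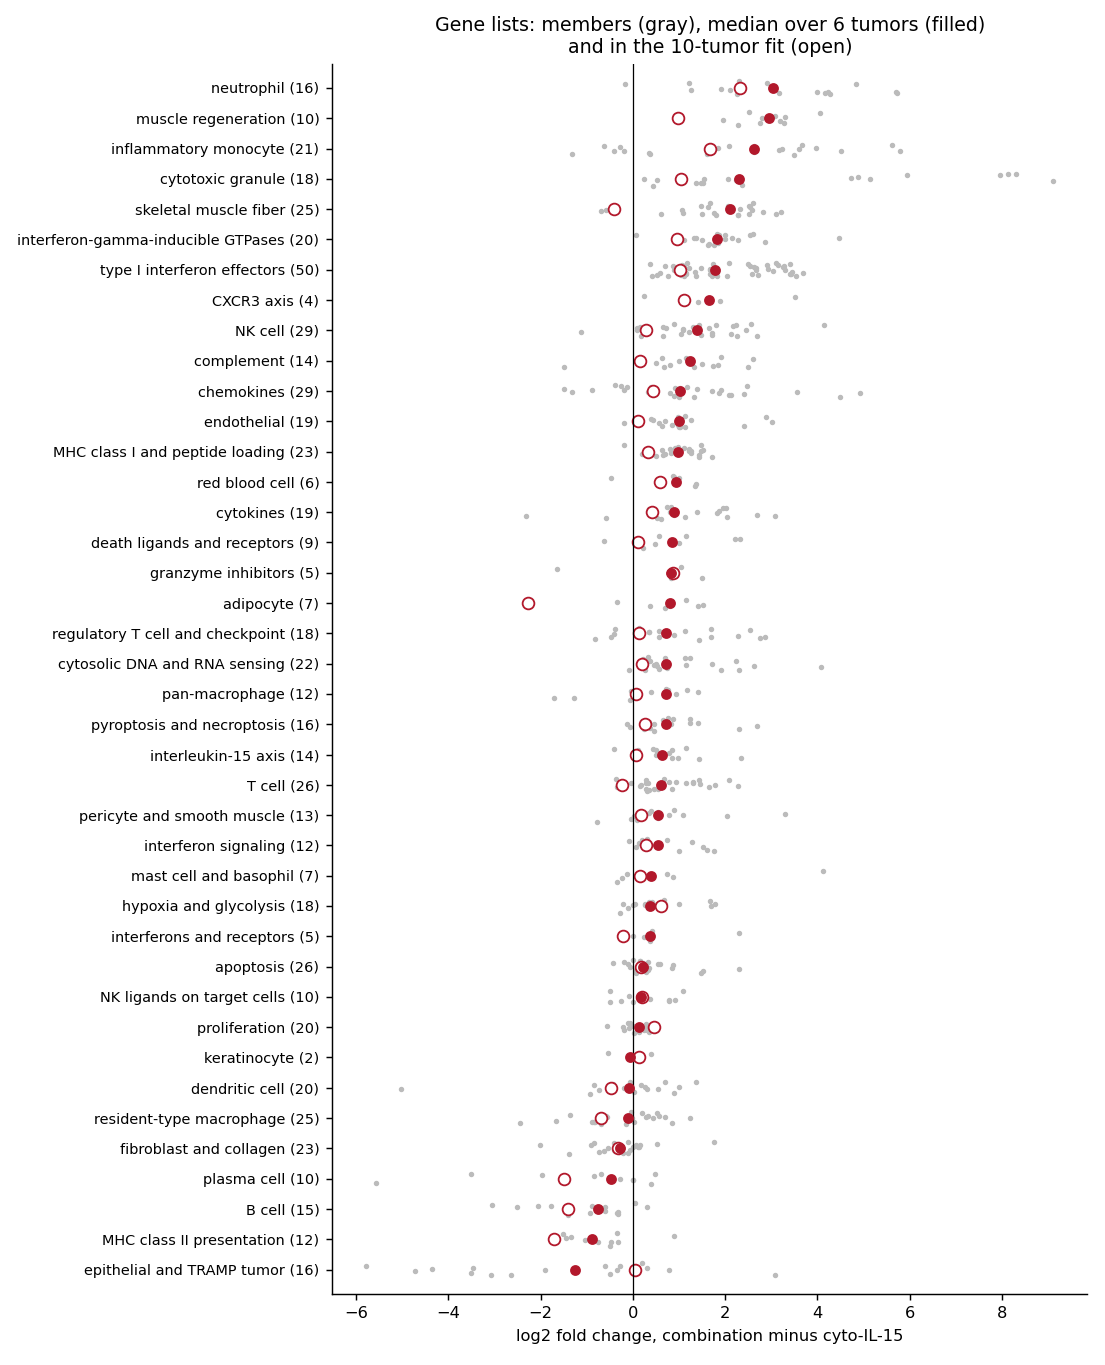
Log2 fold changes (x axis, combination minus cyto-IL-15) of the tested members of 40 gene lists (gray points, number tested in parentheses), with the median over the 6 tumors (filled circle) and in the 10-tumor fit without tumors 13 and 28LL (open circle). The type I interferon effector, granule and monocyte lists have positive medians in both fits, whereas the median of skeletal muscle fiber genes is 2.11 in one and -0.40 in the other.

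Outside the lists, several of the genes with the smallest p belong to myeloid or interferon-induced families. Slfn4, a schlafen gene of myeloid cells, had 1.88, 7.58 and 2.58 CPM and 39.7, 112 and 1022 CPM (log2FC 6.63, 95% interval 3.02 to 10.23; adjusted p = 1.17e-06 by DESeq2). Trem3, a myeloid receptor, had 0.288, 0.274 and 0.359 CPM and 1.52, 2.11 and 4.79 CPM (log2FC 3.20, SE 0.59), and Clec5a, a lectin that activates myeloid cells, had 17.6, 15.4 and 17.7 CPM and 30.4, 41.1 and 51.6 CPM (log2FC 1.29, SE 0.25). Spint1, an inhibitor of cell-surface proteases in epithelia, had 8.12, 9.75 and 6.40 CPM and 19.5, 22.8 and 23.04 CPM, and its 1.43 (SE 0.27) was 1.55 in the 10-tumor fit. The ADU-S100 tumors, at 7.67 to 12.4 CPM, were below the combination tumors in this gene. All 4 were higher in every combination tumor.

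The 11 genes that DESeq2 called lower were all lower in every combination tumor, and 2 of them (Cd209a and Vsig4) were on a list. Ogdhl, of a mitochondrial dehydrogenase family, had 15.7, 9.96 and 16.4 CPM and 4.69, 3.38 and 4.02 CPM, below the 8.70 to 10.6 CPM of HBSS tumors (log2FC -1.79, SE 0.34; adjusted p = 0.000580 by DESeq2 and 0.00664 in the 10-tumor fit of edgeR). Col8a2, a chain of type VIII collagen, had 3.17, 3.42 and 3.00 CPM and 0.559, 0.350 and 1.02 CPM (log2FC -2.30, SE 0.53). Fbn2, a fibrillin of elastic fibers, had 8.15, 15.3 and 4.28 CPM and 1.13, 1.22 and 2.27 CPM (log2FC -2.58, SE 0.61). The other 6 were Sp7, a transcription factor of osteoblasts, with 0.519, 4.42 and 0.0513 CPM and 0.0294, 0 and 0.0138 CPM, the patterning gene Hoxb9 (log2FC -1.81), the membrane glycoprotein gene Gpm6a (-1.30), the butyrophilin gene Btn1a1 (-3.50), the antisense gene Dlx4os (-2.38) and the unnamed gene Gm20139 (-4.07). Tumor 13 was the highest of the 6 in Sp7, Col8a2, Fbn2, Hoxb9, Btn1a1, Dlx4os and Gm20139. Hoxb9 had 12.5, 17.1 and 6.87 CPM and 4.03, 3.95 and 2.41 CPM, but 18.4 CPM in ADU-S100 tumor 17LL. Its adjusted p was 0.467 in the 10-tumor fit of edgeR. The strand setting of the authors' counting, on which the value of Dlx4os depends, is not given in the sources used here.

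The 10-tumor fit called 41 genes higher, of which 24 were on a list and 17 were not, and 35 of the 41 were higher in every combination tumor. Of the 17, Ch25h, an enzyme that makes an antiviral oxysterol, had 4.87, 13.4 and 6.14 CPM and 19.5, 29.3 and 33.0 CPM, with 5.22 to 8.43 CPM in HBSS tumors (log2FC 2.15 in the 10-tumor fit, adjusted p = 0.0103 by edgeR). Apol9a, an interferon-induced apolipoprotein, had 19.8, 34.1 and 14.8 CPM and 48.3, 47.3 and 36.5 CPM (1.47, adjusted p = 0.0103 by edgeR). Both were at their highest among the cyto-IL-15 tumors in tumor 13, which this fit left out. Adam8, a metalloprotease of leukocytes, had 55.3, 106 and 42.7 CPM and 154, 125 and 348 CPM (adjusted p = 0.0285 by edgeR).

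Of the 11 genes called lower in the 10-tumor fit, 3 were lower in every one of the 3 combination tumors (Cd209a, Ogdhl and the sodium channel gene Scn7a). Selenop, which carries selenium and is made by resident macrophages, had 558, 199.7 and 1051 CPM and 237, 318 and 447 CPM, against 665 to 745 CPM in HBSS tumors (log2FC -1.53, adjusted p = 0.0461 by edgeR). Mgp, an inhibitor of matrix calcification, had 22.4, 9.53 and 28.0 CPM and 3.59, 7.71 and 15.3 CPM (log2FC -2.16, adjusted p = 0.0456 by edgeR), and Omd, a proteoglycan of bone matrix, had 2.17, 0.242 and 3.38 CPM and 0.441, 0.525 and 0.455 CPM. In these 3 genes tumors 9R and 20LL were above all combination tumors and tumor 13 was not.

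Scd1, the desaturase that makes monounsaturated fatty acids, differed little in size but was steady within groups. It had 159, 192 and 167 CPM and 95.9, 86.6 and 78.8 CPM, against 169 to 195 CPM in HBSS and 103 to 109.8 CPM in ADU-S100 tumors (log2FC -0.98, SE 0.18, 95% interval -1.42 to -0.54). DESeq2 gave it an adjusted p of 0.0619 and the 10-tumor fit of edgeR 0.0269, where its log2FC of -0.83 was under the threshold for a call. F2rl1, a receptor that proteases activate, had 50.4, 94.0 and 51.3 CPM and 22.4, 27.7 and 23.4 CPM (log2FC -1.41, SE 0.30). The HBSS tumors spanned 17.5 to 62.3 CPM, a range that holds all 3 combination values, and the ADU-S100 tumors 20.8 to 96.5 CPM. In the 10-tumor fit of edgeR its adjusted p was 0.706. The zinc-finger gene Zbtb20 (log2FC -0.66), the microtubule-associated gene Map1a (-0.78) and the histone acetyltransferase gene Kat6b (-1.05) also had small differences. The long noncoding Kcnq1ot1 had 16.0, 19.2 and 17.7 CPM and 8.11, 10.8 and 9.12 CPM.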

How the data were processed

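RNA sequencing of 12 tumors was analysed as the raw counts per gene that the authors deposited, 1 file per tumor. Per the labels' processing notes the submitters used bcl2fastq 2.20, Trimmomatic 0.36, STAR 2.5.2b and featureCounts of Subread 1.5.2 on GRCm38; strand and multi-mapping settings are not given in the sources used here. Groups came from the treatment labels. Counts were scaled with TMM in edgeR 4.0.16 (R 4.3.3, limma 3.58.1), genes were kept by filterByExpr (minimum count 10, minimum total 15), and combination and cyto-IL-15 tumors were compared with the quasi-likelihood test and Benjamini-Hochberg adjustment. Calls were made at an adjusted p under 0.05 and a log2 fold change beyond 1 in size. DESeq2 1.42.0 and a fit without tumors 13 and 28LL were alternatives. The quasi-likelihood and likelihood ratio tests of edgeR, DESeq2 and limma voom were run on simulated data. At a biological coefficient of variation of 0.5, DESeq2 recovered 51 of 100 genes changed by a log2 fold of 2. The quasi-likelihood test recovered 33 of them. False calls in this simulation were 32 for DESeq2 and 5 for the quasi-likelihood test, over 37344 and 19077 genes fitted. All genes had the same coefficient, and no simulated tumor stood apart from its group. Both recovered all 100 genes changed by a log2 fold of 4. Printed CPM use TMM over 12 tumors, with 0.5 CPM added before log2. Members, the 40 gene lists and tests were chosen with earlier results of these data known. Named were the 12 higher and 12 lower genes with the smallest p at a mean of at least 1 CPM, up to 4 per list, the genes of the study's RNA sequencing text and cytokine panel, genes DESeq2 called lower and the 10 with the smallest p it called higher, and 3 promoters. Met, Vim, Krt8, Krt18, Pbsn, Cgas, Tmem173, Ifitm1, H2-D1, the Gzmd to Gzmg group, Rab27a, Gzmk, Ly6c2, Ccr2, Ly6g, Itgax, Mmp9, Vcan, F13a1, Fn1, Arg1, Thbs1, Ch25h, Apol9a, Adam8, Scn7a, Selenop, Mgp and Omd were chosen after their values were seen.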

Additional observations from a re-analysis of the deposited data

How the results depend on the processing

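With edgeR's quasi-likelihood test the count of genes called stayed at 0 with RLE size factors (921 genes at an unadjusted p under 0.05), with no filter on low counts (1632), with no fold threshold (926), with all 12 tumors in the fit (2893) and without each tumor in turn (0 to 0 called, 611 to 1344 at an unadjusted p under 0.05). Limma voom with a quality weight per tumor also called 0 (2749). The likelihood ratio test of edgeR called 53 genes (49 higher), the Wald test of DESeq2 called 111 with the 6 tumors (100 higher) and 440 with all 12 (339 higher), and the fit of 10 tumors without tumors 13 and 28LL called 52 (41 higher). In simulated data with a biological coefficient of variation of 0.5, DESeq2 made more false calls (32) than edgeR's quasi-likelihood test (5), over more genes fitted (37344 against 19077). No simulated tumor stood apart, so these counts do not carry over to the tumor data. The cause of the differences between tools in the tumor data was not tested. Of 61 genes that were named by rule and whose log2FC is printed, none reversed under an alternative. Of these, 47 were called by DESeq2 (6 or 12 tumors), by the likelihood ratio test or in the 10-tumor fit. Many of them were named for a small p or a call in these same data, and the fits share tumors. The agreement is therefore no separate support.

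Without each tumor in turn, the number of genes higher in every combination tumor ranged from 1566 to 2772 and of those lower from 1815 to 2732. With 2 tumors a group in the 10-tumor fit they were 4077 (19.7%) and 4573 (22.1%). Fewer tumors make separation more frequent by construction.

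In the 10-tumor fit, medians of log2FC by list moved by more than the spread between tumors in type I interferon effectors (1.02), interferon-γ-inducible GTPases (0.97), cytotoxic granule (1.04), death ligands (0.11), NK cell (0.28), interleukin-15 axis (0.0754), inflammatory monocyte (1.66), pan-macrophage (0.0698), complement (0.16), proliferation (0.46), hypoxia (0.61), endothelial (0.12) and muscle regeneration (0.97), and, with a change of sign, in epithelial (0.0518), muscle fiber (-0.40) and adipocyte genes (-2.27). The sign also changed, by less than that spread, in T cell (-0.24), interferon and receptor (-0.21) and keratinocyte genes (0.14). With voom weights they were 0.16 for death ligands, 1.79 for inflammatory monocytes, -0.11 for epithelial, 1.68 for muscle regeneration, -1.42 for adipocyte, -0.72 for keratinocyte and -0.43 for red blood cell genes. With no filter they were -1.32 for interferons and receptors, where genes with few reads entered, 0.0194 for NK ligands and -0.64 for keratinocyte genes.

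Without each tumor in turn, the medians ranged from 0.98 (without tumor 28LL) to 2.10 for type I interferon effectors, 1.02 (without 28LL) to 3.03 for inflammatory monocytes, 1.58 (without 28LL) to 4.07 (without 13) for neutrophils, 0.15 (without 28LL) to 1.65 for complement and 0.39 (without 28LL) to 1.23 for endothelial genes. They ranged from 1.18 (without 28LL) to 2.78 for cytotoxic granule, 0.55 (without 28LL) to 1.80 for NK cell, 0.22 (without 13) to 1.06 for T cell and 0.18 (without 28LL) to 0.95 for interleukin-15 axis genes, and from 0.0492 to 0.38 for NK ligands, 0.24 to 0.79 for hypoxia and 1.48 to 4.46 for muscle regeneration. The range crossed 0 for mast cells and basophils (-1.65 to 2.60), pericytes (-0.21 to 0.96), epithelial (-1.54 to 0.17), adipocyte (-1.70 to 1.83) and keratinocyte genes (-0.50 to 0.63), granzyme inhibitors (-0.05 to 1.72), resident-type macrophages (-0.46 to 0.33) and dendritic cells (-0.47 to 0.11). In all, 26 of 574 values changed sign, over 13 lists.

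No paired analysis was possible because the compared groups share 1 number in their tumor names, 20, which the labels do not explain, and fewer than 2 shared numbers allow no block. The biological coefficient of variation was 0.522 in the 6 tumors and 0.269 in the 10-tumor fit. Genes with few reads, such as Ifnb1 and the interferon-α genes, did not pass the count filter and were not tested.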
